A study of Mus musculus with 6 samples.

Results

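The genes described are 10 early activation genes of T cells, namely Egr1, Egr2, Egr3, Nr4a1, Nr4a2, Nr4a3, Fos, Fosb, Junb and Cd69, out of 22180 genes measured. They were chosen by name, as EGR, NR4A and AP-1 members of the immediate early response together with Cd69. The choice was made with earlier results of these data known. Each gene had 1 probe set carrying its symbol alone, and all 10 passed the filter on dim genes and were tested. RNA came from CD4+ T cells of OT II transgenic mice, co-housed to 12 to 16 weeks of age, whose transgenic receptor recognises a peptide of ovalbumin on MHC class II. The cells were cultured for 72 hours with antigen-presenting cells and the ovalbumin peptide, and CD4+ cells were purified again before lysis. The low arginine group (3 arrays) was kept in RPMI-1640 with 10% dialyzed serum and 1% of the normal arginine, 12 uM. The control group (3 arrays) was kept in complete RPMI-1640 with the same serum. Peptide, antigen-presenting cells and transgene were common to both groups. The labels call the replicates biological and the study names 6 mice, but whether each array is a separate animal is not stated, so the p-values measure the spread between these samples.

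Immediate early genes are switched on by receptor signals without new protein synthesis, and in freshly stimulated T cells their RNA usually rises and falls again within hours. The EGR and NR4A proteins and the AP-1 dimers of FOS and JUN proteins are transcription factors that carry the antigen signal to later genes. The receptor acts on them through ERK kinases, which work on serum response factor and its ELK partners, and through calcium, which works on NFAT, MEF2 and CREB. CD69 is the surface protein by which recently activated lymphocytes are commonly recognised, and it holds cells in lymphoid tissue by pulling the receptor S1PR1 off the surface.

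The labelled cell type was checked first. The 6 CD4 T cell markers measured (Cd3e, Cd3d, Cd3g, Cd4, Cd5 and Cd28) averaged 9.21 to 9.49 on the log2 scale in low arginine arrays and 9.33 to 9.56 in controls, and 0 of them passed the test (limma). All B cell, monocyte and neutrophil markers measured lay under 4 in every array, as did 5 of 6 dendritic cell markers and 3 of 4 MHC class II genes. The exception among the class II genes, H2-Ab1, was at 4.09, 4.23 and 4.13 in low arginine against 6.68, 7.48 and 7.47 in control. Markers of CD8 T cells and NK cells were not all low. Cd8b1, a chain of the CD8 coreceptor, stood at 6.06, 6.47 and 6.18 in low arginine against 6.52, 7.15 and 7.03 in control, without overlap (difference -0.66, limma adjusted p = 0.0632), while Cd8a lay under 4 in every array. Among 4 NK cell markers Ncr1 and Klrb1c lay under 4 in every array. Klrd1 stood at 3.23, 3.59 and 3.65 in low arginine against 3.51, 4.27 and 4.52 in control. Eomes, a factor that activated T cells can also make, stood at 5.26, 5.81 and 5.36 in low arginine against 5.201, 4.36 and 4.50 in control, without overlap (difference 0.79, adjusted p = 0.0779). Among plasma cell markers Prdm1 and Xbp1, which activated T cells also make, fell. The part of other cells in the results below was not tested. In bulk RNA, fewer cells of a type and less RNA per cell cannot be told apart.

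The promoters of the 3 NR4A genes carried the same short letters repeatedly, and they are shown for that repetition, beside those of Egr2 and Fos for comparison. CREB and its relatives bind the cyclic AMP response element (CRE), which is made of TGACG elements. Serum response factor binds the CArG box, which is CC, then a run of A or T, then GG. Among the RefSeq windows searched (build GRCm38.p6, 250 bases before to 50 after a transcript start), 7 of the 10 genes were found by symbol. Windows of a whole chromosome were left out before the search. The windows searched held none for Egr1, Egr3 or Cd69, so the promoters of these genes were not examined. Shares of windows given below refer to the windows searched, which need not include every mouse promoter. The 250 bases before the start are printed below from 5′ to 3′ on the gene's strand. They are chr15:101266596-101266845 on the plus strand for Nr4a1, chr2:57124004-57124253 on the minus strand for Nr4a2 and chr4:48045055-48045304 on the plus strand for Nr4a3. For Egr2, which has 5 listed starts, chr10:67537619-67537868 on the plus strand is shown, and for Fos chr12:85473640-85473889 on the plus strand. The Egr2 window was picked as the first to hold both a TGACG element and a CArG box. Of its other windows, that from chr10:67535249 held neither and that from chr10:67537316 held a CArG box alone. Capitals mark TGACG elements (CGTCA where the element lies on the other strand) and, in Egr2, the longer CArG box.
Nr4a1: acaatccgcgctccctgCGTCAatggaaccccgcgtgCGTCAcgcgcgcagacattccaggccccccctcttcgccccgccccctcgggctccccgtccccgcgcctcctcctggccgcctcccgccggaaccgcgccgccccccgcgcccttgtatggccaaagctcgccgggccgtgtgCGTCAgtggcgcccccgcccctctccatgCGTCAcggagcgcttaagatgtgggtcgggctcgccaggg
Nr4a2: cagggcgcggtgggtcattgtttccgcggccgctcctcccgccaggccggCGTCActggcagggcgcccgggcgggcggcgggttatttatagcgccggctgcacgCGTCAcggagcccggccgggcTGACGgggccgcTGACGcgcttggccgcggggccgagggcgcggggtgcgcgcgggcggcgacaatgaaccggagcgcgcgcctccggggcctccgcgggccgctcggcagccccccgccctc
Nr4a3: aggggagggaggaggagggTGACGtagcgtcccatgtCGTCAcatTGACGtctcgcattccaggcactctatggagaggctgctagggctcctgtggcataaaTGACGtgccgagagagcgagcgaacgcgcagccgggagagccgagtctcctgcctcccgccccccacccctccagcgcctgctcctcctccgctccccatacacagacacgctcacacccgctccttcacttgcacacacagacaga
Egr2: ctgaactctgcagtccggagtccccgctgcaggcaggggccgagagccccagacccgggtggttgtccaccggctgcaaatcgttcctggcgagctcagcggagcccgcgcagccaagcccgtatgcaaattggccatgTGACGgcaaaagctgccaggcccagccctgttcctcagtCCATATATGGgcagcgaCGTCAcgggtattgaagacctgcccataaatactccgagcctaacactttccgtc
Fos: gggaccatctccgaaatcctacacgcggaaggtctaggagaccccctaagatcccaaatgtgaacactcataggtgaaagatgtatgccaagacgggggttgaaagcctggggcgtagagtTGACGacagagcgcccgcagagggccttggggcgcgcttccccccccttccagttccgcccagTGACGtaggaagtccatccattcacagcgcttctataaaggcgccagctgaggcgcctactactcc

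Each NR4A window held 4 TGACG elements, each a part of the CRE and not the full CRE. Of the 32851 mouse windows searched, 0.231% held 4 or more and 1.03% held 3 or more. The cut of 4 is the count seen in the NR4A windows, so this share is a description. The background was not matched for GC content, which was 72.3% in the Nr4a1 window, 81.7% in Nr4a2 and 64.7% in Nr4a3. At least 1 such element stood in 20.8% of all windows and in a window of each of the 7 genes matched, with 2 in the Egr2 window shown, 2 in Fos, 1 in Fosb and 1 in Junb. The Egr2 window held 1 CArG box, CCATATATGG, a motif present in 1.63% of windows. The windows of the other genes matched held 0. Bases further upstream were not searched, so a 0 for Fos or another gene does not show that the gene lacks a CArG box. The EGR site GCGNGGGCG was found once each in Nr4a1, Nr4a2 and Fosb and in 5.55% of all windows. The AP-1 site TGANTCA (7.81% of windows), the NGFI-B response element AAAGGTCA bound by NR4A proteins (1.51%) and the full CRE TGACGTCA (1.79%), which contains TGACG on both strands, were found in 0 windows of the 7 genes. These matches are letters in a window and not measured sites.

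**Figure D1:**
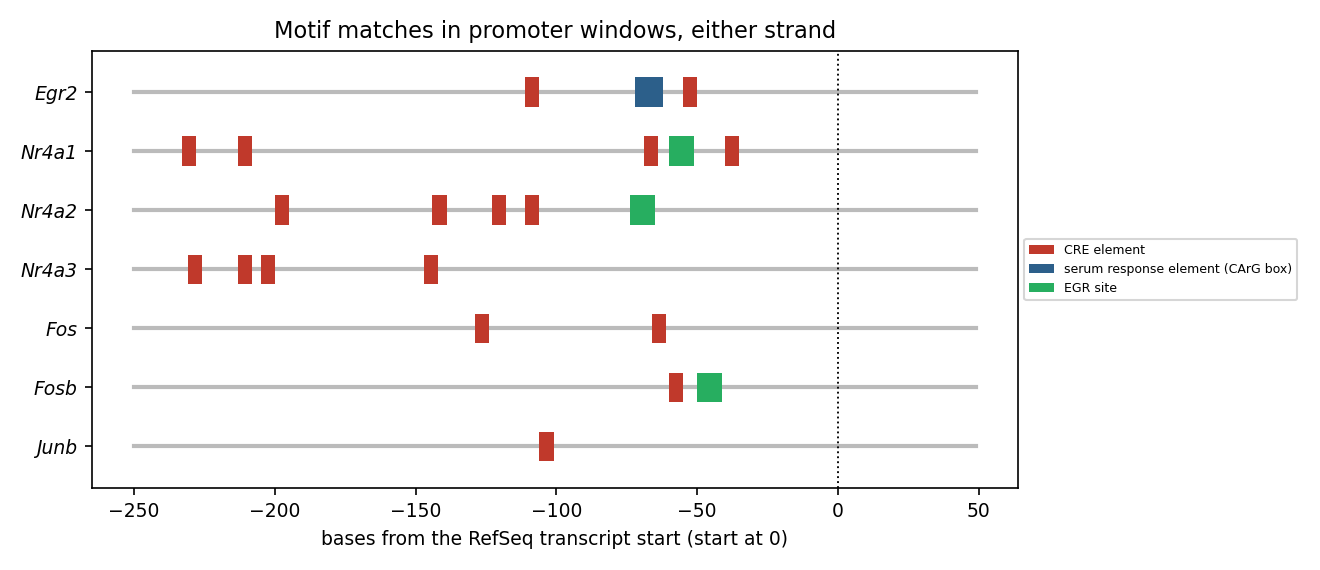
Motif matches in the promoter windows of the 7 genes with a window among those searched. Positions are in bases from the transcript start (start at 0, upstream to the left). Red blocks, named CRE element in the key, are TGACG elements, each a part of the CRE. Blue blocks are the CArG box and green blocks EGR sites, on either strand. Nr4a1, Nr4a2 and Nr4a3 show 4 red blocks each, and Egr2 is drawn for the window printed above.

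Of the 10 genes, 2 rose in low arginine, Cd69 and Egr3, and 0 fell, by limma at a Benjamini-Hochberg adjusted p below 0.05 over 14787 genes. Over all genes tested 12.2% passed, with 5.19% higher and 6.98% lower. All 10 means were higher in low arginine as the values were deposited, while 9 were higher when arrays were centred at the 75th percentile, Junb being the exception. The count was also 9 without control replicate 1 (Fos lower) or without low arginine replicate 2 (Junb lower). With array weights it was 8, Nr4a2 and Fos being lower. The median change was 0.60 on the log2 scale, against 0.01 over all genes tested. For 7 of the 10 genes every low arginine array lay above every control array, which held for 16.0% of all genes tested (32.2% did not overlap in either direction). At an unadjusted p below 0.05 there were 5 of the 10 genes (Egr1, Egr2, Egr3, Nr4a1 and Cd69), where all genes gave 27.3%.

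**Figure D2:**
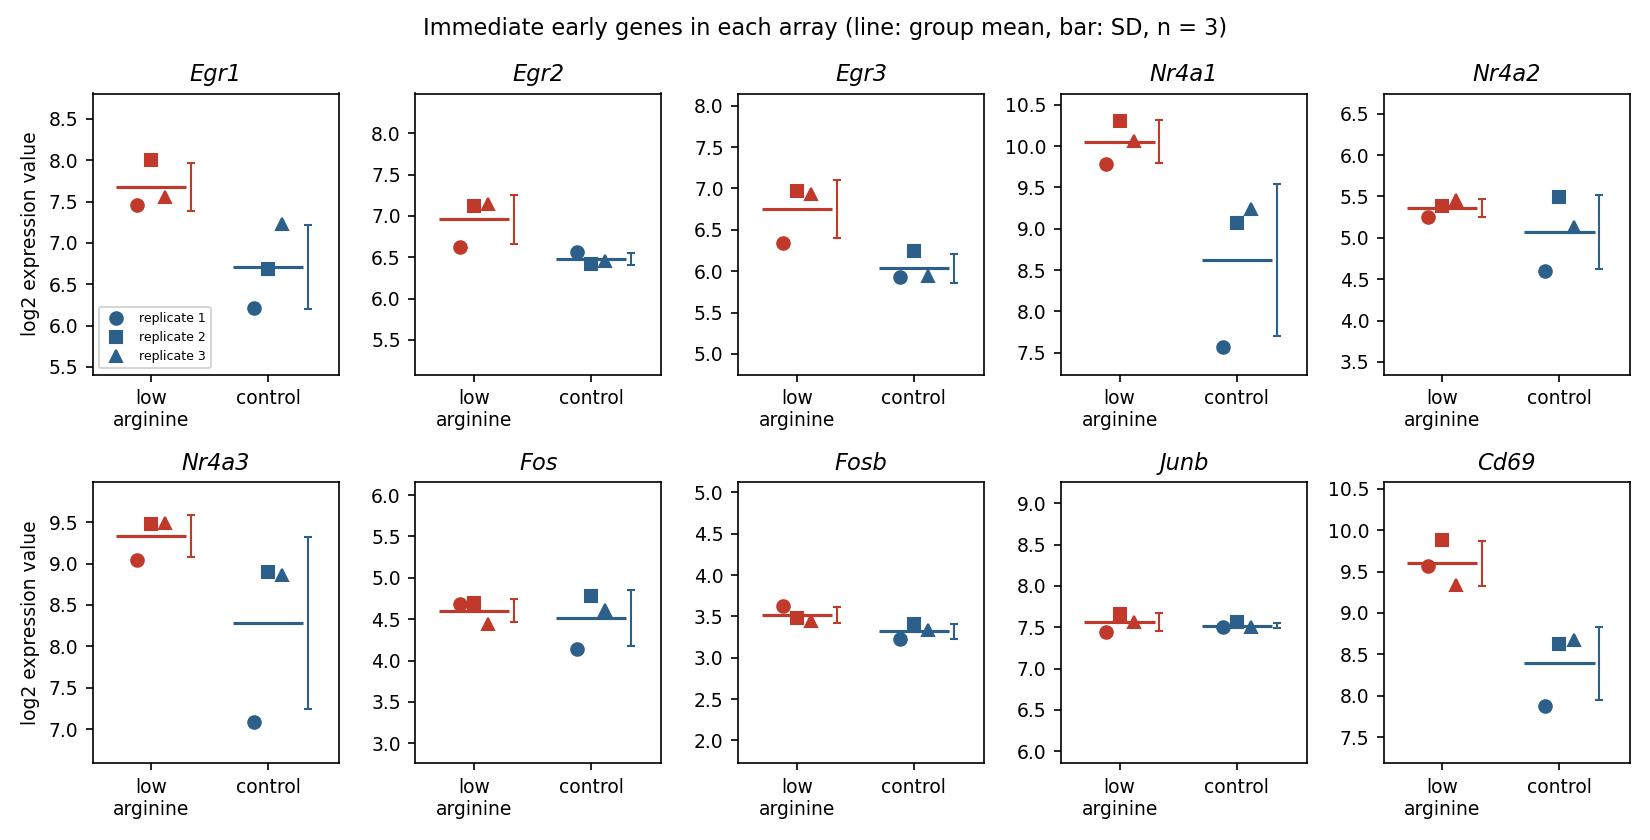
Log2 expression value of each of the 10 genes in each array, low arginine on the left and control on the right of each panel. The symbol gives the replicate number, the line the group mean and the bar the SD (n = 3), and each panel spans the same range. The groups stand apart for Cd69, Egr3 and 5 further genes, overlap for Nr4a2, Fos and Junb, and control replicate 1 is the lowest of the 6 arrays for 8 of the 10 genes.

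Cd69, the activation marker, stood at 9.57, 9.89 and 9.34 on the log2 scale in low arginine replicates 1 to 3, against 7.88, 8.62 and 8.67 in control replicates 1 to 3. The lowest low arginine array lay above the highest control. The mean was 9.60 ± 0.27 in low arginine and 8.39 ± 0.44 in control (SD, n = 3 each), a rise of 1.21 with a 95% interval of 0.66 to 1.76, or 2.31-fold (limma adjusted p = 0.0184). With control replicate 2, or either of low arginine replicates 1 and 2, left out, the adjusted p was between 0.0563 and 0.0818 and the change between 1.07 and 1.33. Cd69 passed in 12 of the 15 alternatives.

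The EGR proteins are zinc finger transcription factors, and Egr2 and Egr3 are known in mouse T cells as brakes on activation that favour unresponsiveness. Egr3 stood at 6.34, 6.97 and 6.93 in low arginine against 5.92, 6.24 and 5.94 in control. The groups did not overlap, low arginine replicate 1 lying closest to the controls. The change was 0.71 with an interval of 0.27 to 1.15 (1.64-fold, limma adjusted p = 0.0492). This call was held by 5 of 15 alternatives. It ended with any 1 control array, or low arginine replicate 2 or 3, left out (adjusted p = 0.0572 to 0.172). It ended also after quantile normalization, either centring, no filter on dim genes, or a trended and robust prior (0.0535 to 0.0724).

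Egr1, the family member most widely used as a readout of ERK signalling, stood at 7.46, 8.005 and 7.56 in low arginine against 6.21, 6.68 and 7.22 in control. The groups did not overlap, but the controls spread over about as wide a range as the difference. The means were 7.67 ± 0.29 in low arginine and 6.71 ± 0.51 in control (SD, n = 3 each), a difference of 0.97 with an interval of 0.36 to 1.58 that did not pass (limma adjusted p = 0.0517). It passed in 5 alternatives, among them those without control replicate 1 (change 0.72, adjusted p = 0.0468) and without control replicate 3 (1.23, 0.0238). Egr2 stood at 6.62, 7.11 and 7.14 in low arginine against 6.56, 6.42 and 6.46 in control. The controls were close together, and low arginine replicate 1 lay just above them. The difference of 0.48 (interval 0.11 to 0.85) did not pass (adjusted p = 0.0944), and without low arginine replicate 1 it was 0.65 (0.0302). Egr4, the remaining EGR gene, was dim in all arrays and differed by 0.06 (interval -0.20 to 0.32, adjusted p = 0.798).

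**Figure D3:**
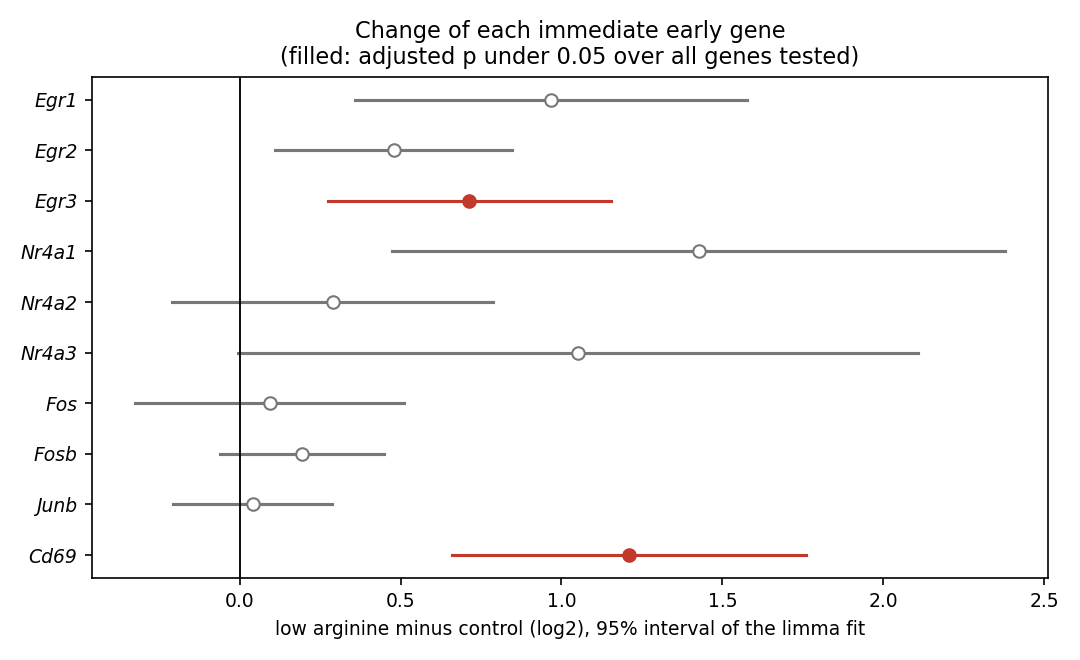
Log2 difference, low arginine minus control, for each of the 10 genes, with the 95% interval of the limma fit. Filled red points passed an adjusted p of 0.05 over all genes tested (Egr3 and Cd69), and open grey points did not. The intervals of Nr4a2, Nr4a3, Fos, Fosb and Junb reach below 0.

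The NR4A proteins are orphan nuclear receptors induced by antigen receptor signals, and Nr4a1 is widely used as a reporter of receptor signal strength. Nr4a1 stood at 9.78, 10.30 and 10.06 in low arginine against 7.57, 9.07 and 9.24 in control. The groups did not overlap, and control replicate 1 lay 1.59 below the mean of the other controls. The means were 10.05 ± 0.26 in low arginine and 8.62 ± 0.92 in control (SD, n = 3 each), the largest difference among the 10 genes at 1.43 (interval 0.47 to 2.38), which did not pass (limma adjusted p = 0.0623). Without control replicate 1 the difference was smaller, at 0.90, and passed (adjusted p = 0.0078), as it did without control replicate 3 (1.73, 0.0488). Nr4a3 stood at 9.04, 9.47 and 9.49 in low arginine against 7.09, 8.90 and 8.87 in control. Its groups did not overlap either, though low arginine replicate 1 lay only just above control replicates 2 and 3. Its difference of 1.05 (interval -0.0049 to 2.11) did not pass (adjusted p = 0.185), and without control replicate 1 it was 0.45 (0.0766). Nr4a2 stood at 5.25, 5.38 and 5.46 in low arginine against 4.60, 5.49 and 5.13 in control. The highest value of all was a control array, and the difference of 0.29 (interval -0.21 to 0.79, adjusted p = 0.458) was 0.05 without control replicate 1 and -0.06 with array weights.

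The AP-1 genes of the set showed the smallest differences. Fos stood at 4.68, 4.69 and 4.44 in low arginine against 4.13, 4.78 and 4.61 in control. The groups overlapped, and the difference of 0.09 (interval -0.32 to 0.51, limma adjusted p = 0.800) was -0.09 without control replicate 1. Fosb stood at 3.62, 3.48 and 3.44 in low arginine against 3.23, 3.41 and 3.33 in control. The groups did not overlap, but the lowest low arginine and highest control arrays were nearly level, and the difference was 0.19 (interval -0.06 to 0.45, adjusted p = 0.316). Junb, the JUN protein that pairs with FOS and BATF proteins in T cells, stood at 7.45, 7.67 and 7.57 in low arginine against 7.50, 7.56 and 7.50 in control. Low arginine replicate 1 was the lowest of the 6 arrays, and the difference was 0.04 (interval -0.21 to 0.29, adjusted p = 0.861). The upper ends of these 3 intervals correspond to 1.43-fold for Fos, 1.36-fold for Fosb and 1.22-fold for Junb.

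Control replicate 1 stood apart from the other controls over these genes. It was the lowest of the 6 arrays for 8 of the 10 genes (all but Egr2 and Junb). For the 7 genes whose groups did not overlap the lowest array was a control in any case. How often control replicate 1 was lowest over all genes was not counted. Its median difference from the mean of the other controls was -0.64, against 0.01 over all genes tested. Averaged over the 3 NR4A genes, the deviation from the mean of all arrays was 0.24, 0.60 and 0.55 in low arginine replicates 1 to 3, against -1.37, 0.03 and -0.04 in control replicates 1 to 3. For the 3 EGR genes it was 0.04, 0.60 and 0.44 in low arginine against -0.54, -0.32 and -0.23 in control. For the 3 AP-1 genes it was 0.08, 0.11 and -0.02 in low arginine against -0.22, 0.08 and -0.02 in control. In both the EGR and the NR4A average every low arginine array lay above every control, while the AP-1 averages overlapped. Without control replicate 1, 3 of the 10 genes passed (Egr1, Nr4a1 and Cd69), where 3325 genes passed in all. With replicate 2 of either group left out, 0 of the 10 passed by limma (500 and 509 genes in all), and without low arginine replicate 3 only Cd69 did.

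**Figure D4:**
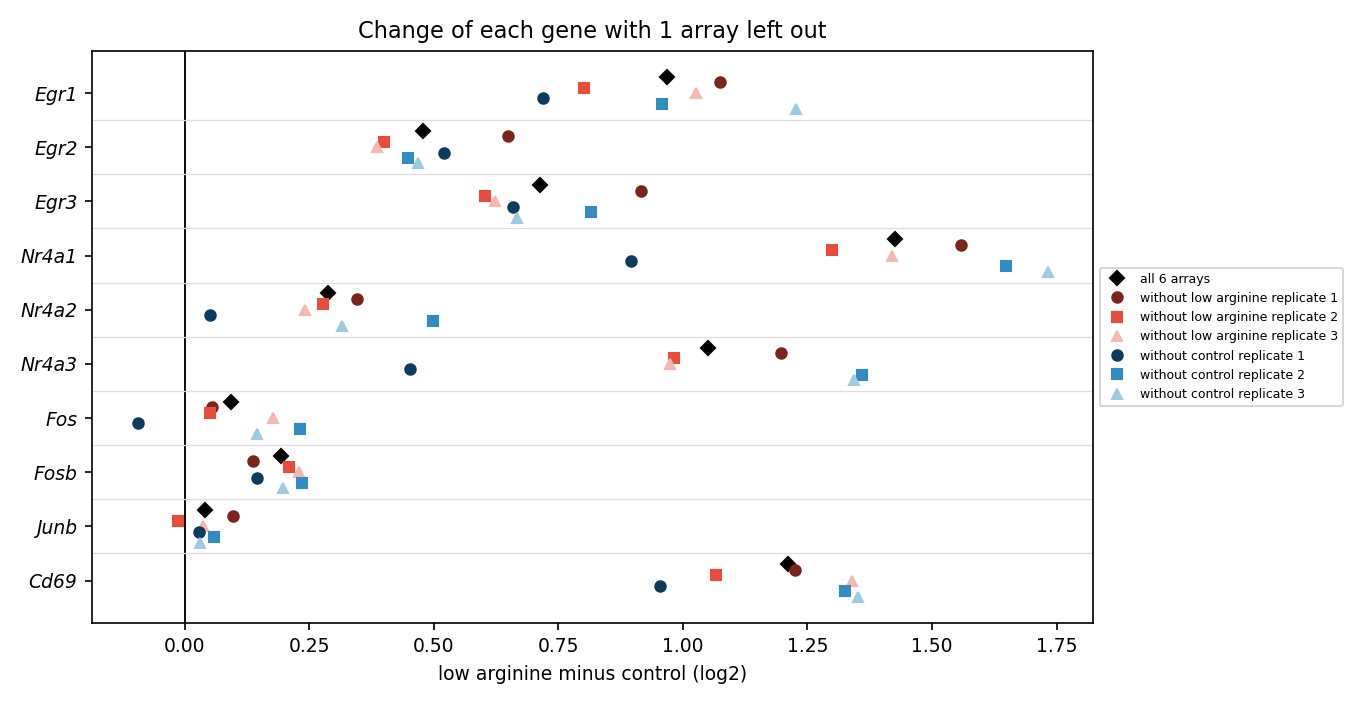
Log2 difference, low arginine minus control, for each of the 10 genes, with all 6 arrays (black diamonds) and with 1 array left out. Leaving out control replicate 1 (dark blue circles) gave the lowest value for Egr1, Nr4a1, Nr4a2, Nr4a3, Fos and Cd69, as low as 0.45 for Nr4a3 and -0.09 for Fos.

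Over the 6 arrays the 10 genes varied together to different degrees, given here as descriptions in which the group difference and control replicate 1 are shared by all genes. The median Pearson correlation over all pairs was 0.68 across the 6 arrays and 0.45 after centring within each group. Nr4a1 and Nr4a3 were the most alike (0.97, and 0.99 centred). Egr2 and Egr3 gave 0.93 (0.78 centred), while Egr2 and Fos gave -0.07 (-0.42 centred). The genes whose values most resembled the mean of the 10 were the ribosomal protein genes Rps12 (0.994) and Rps9 (0.993), Cnksr3 (0.993), Cebpg, a leucine zipper partner of C/EBP and ATF proteins (0.991), and Amigo2 (0.990). None of these 5 passed the test by limma (adjusted p = 0.0509 to 0.293), and control replicate 1 was the lowest array for all 5.

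Other genes of the response were described from 9 lists holding 146 genes tested, of which 16 rose and 13 fell (19.9%, against 12.2% of all genes). The lists were chosen with earlier results of these data known, so their shares and medians are descriptions and not tests. Among 14 other AP-1 and related leucine zipper factors only Fosl2, a FOS relative, passed (7.14%). It stood at 6.62, 6.98 and 6.83 in low arginine against 7.51, 8.50 and 8.42 in control and fell by 1.33 (limma adjusted p = 0.0176). That call ended when control replicate 2, or 1 of the low arginine arrays, was left out (adjusted p = 0.0635 to 0.0750). Jun differed by 0.06 (interval -0.75 to 0.88, adjusted p = 0.940) and by -0.34 without control replicate 1, and Jund by 0.24 (interval -0.06 to 0.55, adjusted p = 0.288).

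Of 34 other immediate early genes, 3 rose and 1 fell (11.8%, against 12.2% of all genes), with a median of 0.18. The share that passed was thus close to that of all genes. Gadd45b, a stress sensor that binds MAP kinase kinases, stood at 7.96, 8.15 and 8.02 in low arginine against 6.80, 6.23 and 6.09 in control, a rise of 1.67 (limma adjusted p = 0.00334). Nfkbid, a nuclear IκB protein, rose by 1.46 (adjusted p = 0.00428), and Nfkbia, the inhibitor that holds NF-κB in the cytoplasm, rose by 0.61 (0.0409). The Nfkbia call ended when control replicate 2, or 1 of the low arginine arrays, was left out (0.0919 to 0.142). With all 6 arrays it ended also after centring on the 75th percentile (0.0590) and, separately, with a replicate block (0.0533). Ier3, an early gene of stress and survival, went the other way at 4.15, 4.19 and 4.08 in low arginine against 6.84, 8.30 and 8.22 in control, a fall of 3.65 (12.6-fold, adjusted p = 0.0020). All 3 low arginine arrays of Ier3 lay within about 0.1 of each other. Myc, a growth factor response gene, differed by 0.24 (interval -0.04 to 0.51, adjusted p = 0.258).

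Genes that partner or follow the EGR proteins did not move 1 way. There were 1 rise and 1 fall among 13 tested (15.4%, against 12.2% of all genes), with a median of -0.14. Nrp1, a semaphorin and VEGF co-receptor also found on regulatory T cells, rose by 1.85 (limma adjusted p = 0.00669). Ndrg1, an anergy factor described downstream of Egr2 in mouse T cells and also a hypoxia gene, fell by 2.21 (0.00834), its values being 7.11, 7.07 and 7.11 in low arginine against 8.43, 9.73 and 9.77 in control. The EGR co-repressor Nab2, itself an EGR target, differed by -0.14 (interval -0.50 to 0.22, adjusted p = 0.628).

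Among 22 upstream factors 2 rose and 2 fell (18.2%, against 12.2% of all genes), with a median of 0.12. Mrtfa, the actin-regulated partner of serum response factor, rose by 0.48 (limma adjusted p = 0.0260) and Mef2a, a calcium-responsive factor of the MEF2 family, by 0.53 (0.0271). Map2k1, the kinase MEK1 that activates ERK, stood at 5.88, 6.07 and 5.83 in low arginine against 6.73, 6.94 and 6.66 in control and fell by 0.85 (adjusted p = 0.00764). Crem, a CREB relative with an inducible repressor form, fell by 0.53 (0.0440). The calls of Mrtfa, Mef2a and Crem ended when control replicate 2, or 1 of the low arginine arrays, was left out, and those of Mef2a and Crem also without control replicate 3 (adjusted p = 0.0610 to 0.153 over all of these). The Mrtfa call ended also with a replicate block (0.0585) and the Crem call with a trended and robust prior (0.0609). Srf differed by 0.27 (interval -0.22 to 0.77, adjusted p = 0.484) and passed without control replicate 1 at 0.52. Nfatc1 differed by 0.31 (interval -0.0030 to 0.62, adjusted p = 0.187).

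MAP kinase feedback genes, which ERK signalling itself induces, had the highest median of the lists at 0.54. Among 11 there were 3 rises and 1 fall (36.4%, against 12.2% of all genes). Spry1, an inhibitor of receptor signalling to ERK, rose by 1.13 (limma adjusted p = 0.0144), the phosphatase Dusp5 by 0.95 (0.0122) and the phosphatase Dusp1 by 0.77 (0.0141). Dusp1 stood at 7.18, 7.23 and 7.30 in low arginine against 6.19, 6.53 and 6.66 in control. Spred2, another inhibitor of the pathway, fell by 1.02 (adjusted p = 0.0355). All 4 calls ended when low arginine replicate 2 or 3 was left out, those of Dusp1, Dusp5 and Spred2 also without control replicate 2, and that of Spred2 also without control replicate 3 or low arginine replicate 1 (0.0503 to 0.133). With a replicate block the Spred2 call ended too (adjusted p = 0.0583).

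**Figure D5:**
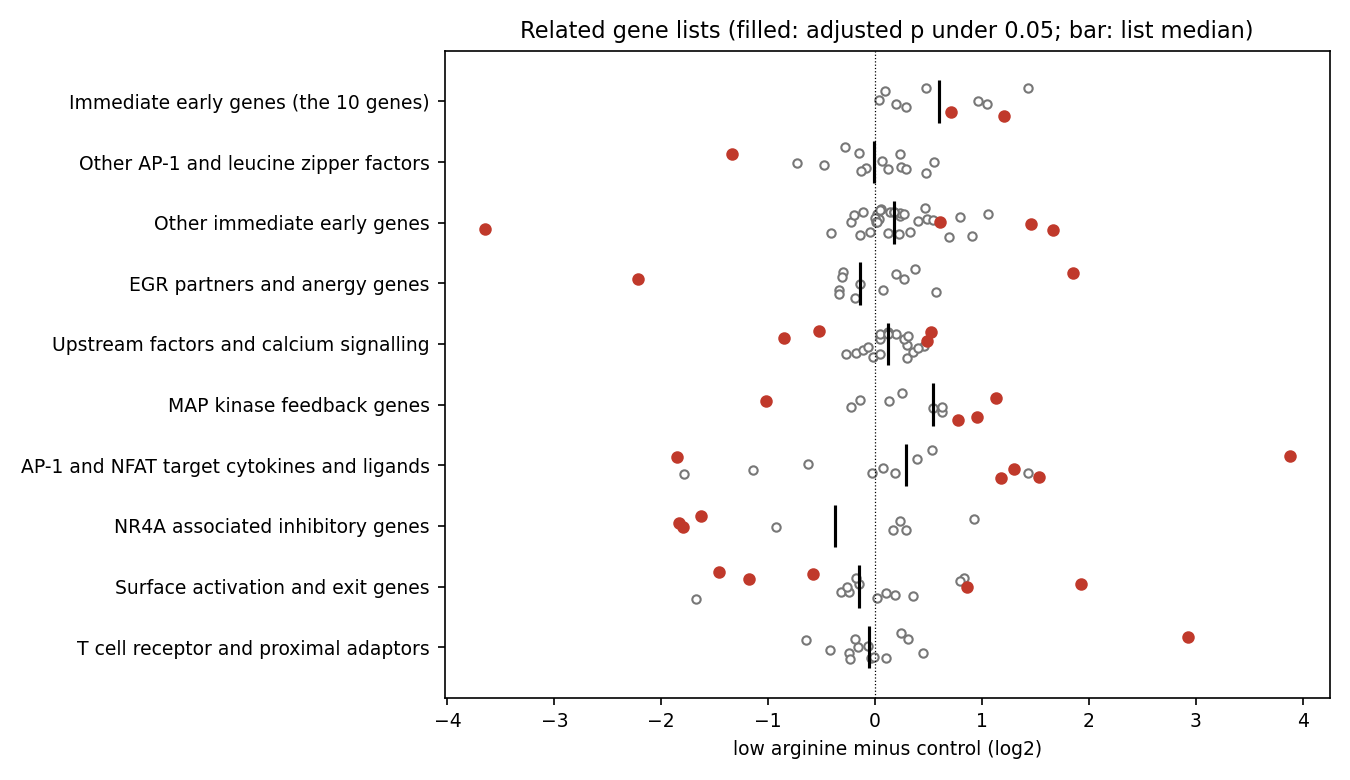
Log2 difference, low arginine minus control, for the 10 immediate early genes (top) and for the tested members of 9 related lists, 1 point a gene, with a black bar at each list's median. Filled red points passed an adjusted p of 0.05 by limma; the medians run from -0.38 for NR4A associated inhibitory genes to 0.60 for the 10 genes.

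Cytokines and ligands whose promoters AP-1 and NFAT act on had 4 rises and 1 fall among 14 (35.7%, against 12.2% of all genes). Il2, the T cell growth factor, stood at 6.75, 6.89 and 4.93 in low arginine against 2.60, 2.04 and 2.31 in control (limma adjusted p = 0.00460). Tnf rose by 1.18 (0.00639), and the chemokines Ccl3 and Ccl4 rose by 1.53 (0.0363) and 1.30 (0.0211). Fasl, the death ligand that EGR2 and EGR3 are known to induce, fell instead, with 3.90, 3.94 and 3.68 in low arginine against 5.30, 5.81 and 5.95 in control, a change of -1.85 (adjusted p = 0.00203). The call of Ccl3 ended whichever array but control replicate 1 was left out, and that of Ccl4 without control replicate 2 or low arginine replicate 3 (0.0590 to 0.133). With a replicate block the Ccl3 call ended too (adjusted p = 0.0501).

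Inhibitory genes that NR4A factors are linked to in chronically stimulated mouse T cells had 0 rises and 3 falls among 8. That is 37.5%, against 12.2% of all genes, and the median was -0.38. Ctla4, the inhibitory receptor for B7 ligands, stood at 6.20, 6.27 and 6.43 in low arginine against 7.72, 8.06 and 7.99 in control, a fall of 1.62 (limma adjusted p = 8.26e-04). Tigit fell by 1.84 (0.00746) and the ectonucleotidase Entpd1 by 1.79 (0.00211). These 3 passed in all 15 alternatives. Low arginine lay wholly below control for 3 of the 8 and wholly above for 2, against 16.2% and 16.0% of all genes. The 2 above were Tox (0.92, limma adjusted p = 0.0613) and Tox2 (0.29, 0.217), which did not pass. Both were named after their values were seen.

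Of 17 surface activation and exit genes, 2 rose and 3 fell (29.4%, against 12.2% of all genes). S1pr1, the exit receptor that CD69 protein binds, stood at 8.48, 8.48 and 8.85 in low arginine against 5.91, 6.995 and 7.12 in control and rose by 1.93 (limma adjusted p = 0.00958). Cd69 and S1pr1 RNA were both higher in low arginine, without overlap of the groups in either. Klf2, the factor that drives S1pr1, differed by 0.79 (interval 0.21 to 1.38, adjusted p = 0.0839), also without overlap. Cd83, another early activation marker, rose by 0.86 (0.0341), while Tnfrsf9 (4-1BB), a costimulatory receptor induced by activation and an EGR2 target in mouse, fell by 1.46 (0.00303). Il7r, the interleukin 7 receptor, fell by 1.18 (0.0109) and S1pr4 by 0.58 (0.0173). The calls of Cd83 and S1pr4 ended when control replicate 2, or 1 of the low arginine arrays, was left out, and that of Il7r without low arginine replicate 2 or 3 (0.0516 to 0.126). After quantile normalization the Cd83 call ended too (adjusted p = 0.0545). Of 14 genes of the T cell receptor and its proximal adaptors, Trat1 alone passed (7.14%), rising by 2.93 (limma adjusted p = 6.02e-04).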

How the data were processed

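The deposited values, made by the authors per the labels and the submitters' processing notes with the oligo package, are log2 expression values per probe set of 1-colour Affymetrix arrays (6 arrays, 41345 probe sets, range 0.956 to 12.41). Background correction, normalization, log base and oligo version were not given in the sources used here, and base 2 was assumed from the values and the array type. No detection calls or scanner signals were used, and the number of arrays, 3 a group, limits the precision. Probe sets with exactly 1 gene symbol (23521) were kept and the brightest by mean over the 6 arrays stood for its gene (22180 genes). The dimmest 0.333 (7393 genes, limit 2.48) were left out, and 14787 were tested with limma 3.58.1 in R 4.3.3 (lmFit, eBayes, two-sided tests with group as the single term, 4 residual degrees of freedom and 3.69 from the prior), with Benjamini-Hochberg adjustment over all of them and a threshold of 0.05. Changes are low arginine minus control.

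The members and lists were chosen with earlier results of these data known. Named were all members, every list gene past the threshold (5 or fewer in each direction of each list), 10 genes whatever their result (Jun, Jund, Egr4, Nab2, Srf, Nfatc1, Myc, Il2, S1pr1 and Klf2), and the 5 genes most like the member mean, leaving out predicted genes and receptor segments. Of 159 list genes 149 were matched by symbol or older symbols of RefSeq GRCm38.p6, and the rest were not analysed here. On simulated data with 14787 genes, the fit found 14% of the genes changed by 0.5 (log2), 94% of those changed by 1 and 100% of those changed by 2. It also called 9 unchanged genes, and 2 genes in a run with no change. Noise was drawn separately for each gene and array, with no array set apart, and changed genes were drawn at random. These shares therefore need not hold for the 10 genes. Alternatives were quantile normalization, centring on the median or 75th percentile, no filter or a 0.5 filter, the mean of probe sets, a trended and robust prior, array weights, a replicate block, and leaving out each array.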

Additional observations from a re-analysis of the deposited data

How the results depend on the processing

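The count of members that rose was 2 and was between 0 and 3 when 1 array was left out. It was 1 after quantile normalization, centring on the median, centring on the 75th percentile, no filter on dim genes, or a trended and robust prior, when Cd69 alone passed. Leaving out the dimmest 0.5 of genes gave 3, and the mean of probe sets gave 2. With array weights it was 5 (Egr1, Egr2, Egr3, Nr4a1 and Cd69), where 5514 genes passed in all. The weight was 5.19 for control replicate 2, against 0.239 and 0.506 for control replicates 1 and 3. In low arginine the weights were 1.02, 1.45 and 1.08 for replicates 1 to 3. The control mean in that setting thus came mostly from control replicate 2. No member fell under any of the 15 alternatives, and at an unadjusted p below 0.05 none was lower in the limma fit of all arrays either. Among the related lists the counts were 44 higher and 27 lower with array weights, and 8 to 25 higher and 8 to 19 lower with 1 array left out. With the replicate number as a block (replicate block), 4 members rose, Egr1 (adjusted p = 0.0439), Egr3 (0.0353), Nr4a1 (0.0274) and Cd69 (0.0219), while 1568 genes passed in all. Samples of the same number deviated together with correlations of 0.12, 0.06 and 0.14, each array correlating best with its own number, which is a hint from the data and not the design. Signs of differences that had not passed turned for Nr4a2 with array weights (-0.0595), for Fos with array weights (-0.132) and for Junb with the 75th percentile (-0.0195). Jun turned with array weights (-0.393), and Egr4 with the 75th percentile (-0.00067) and array weights (-0.0190). Leaving out 1 array in turn, the difference ranged from -0.0944 to 0.231 for Fos, from -0.0122 to 0.0973 for Junb, from -0.339 to 0.338 for Jun and from -0.0223 to 0.110 for Egr4. Fos was below 0 without control replicate 1, Junb without low arginine replicate 2, Egr4 without control replicate 3, and Jun without low arginine replicate 3 (-0.101) or control replicate 1. The cause was not tested. The likeness of the members, a median correlation of 0.68, was 0.45 after centring within each group. Without detection calls the lowest signals, such as those of Egr4 and Fosb, have no measured background.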

Other observations

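Control replicate 1, the lowest array for 8 of the 10 immediate early genes, was the highest of the 6 for the type 2 cytokines Il13 and Il4, which were looked at after their values were seen. Il13 stood at 4.60, 4.47 and 3.79 on the log2 scale in low arginine replicates 1 to 3, against 8.40, 5.45 and 4.38 in control replicates 1 to 3. Il4 stood at 2.98, 2.99 and 2.58 in low arginine against 5.54, 3.04 and 3.38 in control. Neither passed by limma (adjusted p = 0.249 and 0.261).

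Csf2, which encodes GM-CSF, stood at 5.37, 4.41 and 3.73 in low arginine against 3.46, 2.78 and 2.99 in control and lay just outside the threshold (limma adjusted p = 0.0511). The groups did not overlap. It too was chosen after its values were seen.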
